A study of Mus musculus with 7 samples.

Results

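The genes described here encode the proteins of the cytosolic ribosome. They were taken from the deposited table as the protein-coding rows whose symbol is Rpl or Rps with a number and at most a letter (a, x, l or y), or Rplp with 0, 1 or 2. This gave 80 of 45777 genes, 50 of the large subunit and 30 of the small subunit. The RNA came from PBMCs (peripheral blood mononuclear cells: lymphocytes and monocytes isolated from blood) of mice at week 8, and was read by RNA sequencing. There were 7 groups with 1 library each. Non was the control, and its sample label does not say how its mice were handled before week 8. The other groups were bled serially until week 8, each by 1 of 3 routes. These were the facial vein (FV), the tail vein (TV) and the retro-orbital plexus (RP), a bed of vessels at the back of the eye socket. Each route had a library without ibuprofen and one with it. Ibuprofen blocks cyclooxygenase enzymes. The sources used here do not give the strain, the age, the dose or whether mice were pooled. The title of the study names pain and inflammation, so the comparisons ask how these genes differed between collected and control mice, between routes and with ibuprofen.

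A ribosome is built from a small subunit, which decodes the mRNA, and a large subunit, which joins the amino acids. Each protein is made in near equal number with the others, and most are encoded by a single active gene that has left many processed pseudogenes, intron-less copies scattered over the genome. Mammalian ribosomal protein mRNAs begin with a run of pyrimidines, the 5′ terminal oligopyrimidine (TOP) motif, through which mTOR signalling controls their translation. Resting lymphocytes keep such mRNAs largely untranslated until they are activated, and young red cells lose their ribosomes as they mature.

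Total counts were 47903611 to 63801032 per library. A list of 23 erythroid genes in the table, led by the globins, took 48.5% to 74.0% of all counts, most of it in TV without ibuprofen. The labelled PBMC identity was therefore met by T and B cell transcripts beside an excess of red cell transcripts: all 20 T cell and all 20 B cell markers were detected in every library. Levels are given in CPM, the counts of a gene relative to its library's size, adjusted between libraries by TMM (trimmed mean of M values). A difference between libraries is given on the log2 scale of CPM with a prior count of 2. In bulk RNA, fewer cells of a type and less RNA per cell cannot be told apart.

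Ribosomal protein genes took 1.87% of all counts in Non. Without ibuprofen the share was 1.72% for the facial vein, 1.72% for RP and 0.828% for TV, and with ibuprofen 2.26%, 1.75% and 1.46%. Since red cell transcripts fill most of each library, the share was also taken over the counts outside the erythroid list. It was then 4.81% in Non (95% Wilson interval 4.796% to 4.815%). Without ibuprofen the FV library held 3.87%, the RP library 3.98% and the TV library 3.19%. With ibuprofen the shares were 4.40%, 5.01% and 4.53%. All 3 libraries without ibuprofen thus lay below Non and below all 3 with ibuprofen, and RP with ibuprofen lay above Non. The Wilson interval covers counting error only, not the spread between mice.

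**Figure D1:**
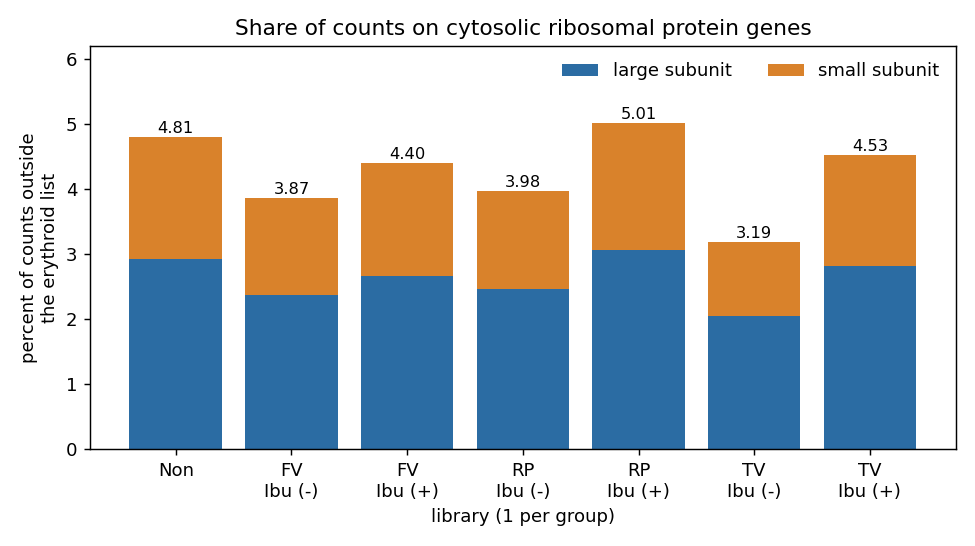
Bars give the share of counts on the ribosomal protein genes, in percent of the counts outside the erythroid list, for each of the 7 libraries, split into large subunit (blue) and small subunit (orange). The 3 libraries without ibuprofen, at 3.87%, 3.98% and 3.19%, stand below Non at 4.81% and below the 3 with ibuprofen.

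In both subunits the libraries without ibuprofen also lay below Non and below those with ibuprofen. The large subunit held 2.92% in Non, 2.38%, 2.46% and 2.04% in FV, RP and TV without ibuprofen, and 2.66%, 3.05% and 2.82% with it. The small subunit held 1.89% in Non, 1.49%, 1.52% and 1.15% without ibuprofen, and 1.73%, 1.96% and 1.71% with it. RP with ibuprofen lay above Non in both. The counts on large subunit genes were 1.55 times those on small subunit genes in Non, 1.59, 1.62 and 1.78 times in FV, RP and TV without ibuprofen, and 1.54, 1.56 and 1.65 times with it. The ratio was highest in both TV libraries.

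Of the 80 genes, 76 reached a mean of 1 CPM and were tested, 46 of the large and all 30 of the small subunit. The other 4 are Rpl3l, Rpl10l, Rpl39l and Rpl32l. Rpl10l, which replaces Rpl10 in the male germ line, had no count in any library, which allows at most 0.0916 CPM in the library with the smallest effective size (3 counts). Rpl39l, the testis form of Rpl39, had 8 counts in FV and 3 in TV without ibuprofen and none elsewhere. Rpl3l, the striated muscle form of Rpl3, had 22 counts in Non and between 13 and 30 in the other libraries, which is 0.199 to 0.536 CPM, against 163 to 229 CPM for Rpl3. Rpl10 itself stood at 283 to 364 CPM. Rpl32l stood at 0.0305 to 0.216 CPM. Rps4l is listed as a transcribed pseudogene and so stands outside the rule. It held 6 to 41 counts per library, while its partner Rps4x, on the X chromosome, stood at 341 to 478 CPM.

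Compared per length, on the deposited TPM scale (abundance corrected for transcript length), the large subunit was led by Rpl41, a short peptide at the interface of the subunits, and by the stalk proteins Rplp1, Rplp0 and Rplp2, which recruit translation factors. Rpl41 averaged 773 TPM over the 7 libraries (618 to 995), Rplp1 averaged 519 TPM, Rplp0 461 TPM and Rplp2 439 TPM. In the small subunit the highest levels per length were those of Rps9, at 704 TPM (361 to 1099), Rps27 at 536 TPM, Rps29 at 484 TPM and Rps12 at 397 TPM. Among the tested members, the lowest of the large subunit were Rpl15 at 50.35 TPM, Rpl34 at 44.0 TPM, Rpl29 at 28.6 TPM and Rpl22 at 28.3 TPM. The lowest of the small subunit were Rps2 at 50.7 TPM, Rps20 at 43.0 TPM, Rps15a at 35.3 TPM and Rps27l at 10.8 TPM. Rps20 and Rps15a were low per length although their levels in CPM were ordinary, at means of 167 and 203 CPM. The length implied by their deposited counts and FPKM values was 3770 and 5619 bases, against a median of 656 bases for the small subunit. For Rpl34, Rpl29 and Rps2 most counts of the gene and its copies lay on the copy rows, as described below.

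The first comparison asks how the genes stood in each collected library against Non. In the libraries without ibuprofen they were lower as a group, and in those with ibuprofen they were close to Non. Over the 75 members at a mean of 10 CPM or more, the median log2 difference without ibuprofen was -0.19 for FV, -0.25 for RP and -0.27 for TV. All genes at that level had medians of 0.02, 0.04 and 0.00. With ibuprofen the member medians were 0.05 (FV), 0.07 (RP) and 0.02 (TV), with all genes at 0.04, 0.00 and -0.01. Below Non lay 64, 73 and 60 of the 75 members in FV, RP and TV without ibuprofen, and 26, 12 and 32 with it. These 6 differences share the Non library and so are not independent of each other.

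**Figure D2:**
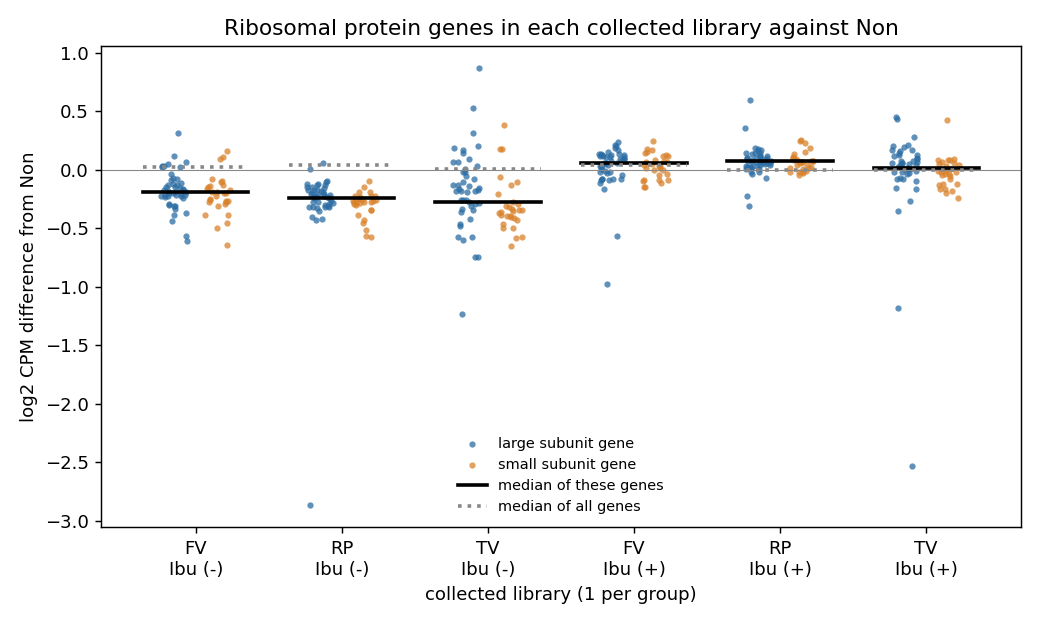
Each point is 1 of 75 ribosomal protein genes, and its height is the log2 CPM difference of a collected library from Non (blue, large subunit; orange, small subunit). Black bars are the medians of these genes and dotted grey bars the medians of all genes. In the 3 libraries without ibuprofen the black bars lie at -0.19 to -0.27, below the grey ones. The lowest points without ibuprofen are Rpl29 at -2.87 in RP and -1.24 in TV. Those with ibuprofen are Rpl29 at -2.53 and Rpl35a at -1.18, both in TV.

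The deposited TPM values, which move with the globin share, gave other raw signs in some libraries. On that scale the median of all genes moved against Non by 0.24, 0.20 and -0.94 in FV, RP and TV without ibuprofen and by 0.52, -0.21 and -0.44 with it. The members' medians were -0.07, -0.04 and -1.47 without ibuprofen and 0.45, -0.17 and -0.46 with it, so that the sign in RP and TV with ibuprofen was opposite to that in CPM. Relative to the median of all genes, the members lay at -0.31, -0.24 and -0.53 without ibuprofen and at -0.07, 0.05 and -0.02 with it in TPM. The same relative values in CPM were -0.22, -0.29 and -0.27 without ibuprofen and 0.02, 0.07 and 0.02 with it.

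Only Rpl29 and Rpl35a were at least 2-fold from Non in any library. Rpl29 passed that fold in RP without ibuprofen and in both TV libraries, and Rpl35a in TV with ibuprofen, all of them lower. Without ibuprofen this is 0 of 75 members for FV (background 7.68% of genes at that level), 1 for RP (0.413%) and 1 for TV (10.8%). With ibuprofen it is 0 for FV (5.54%), 0 for RP (0.331%) and 2 for TV (0.529%). Both genes have near-identical copies, and with the counts of the copies added no member was 2-fold from Non in any library.

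Over the 3 routes together, 67 of the 76 tested members were lower without ibuprofen than in Non (background 50.8% of genes with a log2 fold below 0), with a median log2 fold of -0.23 against -0.01 for all 11804 genes, and 9 were higher (background 49.2%). The small subunit had a median of -0.28, with 27 of 30 lower, and the large subunit -0.21, with 40 of 46 lower. No member passed an adjusted p of 0.05 in edgeR's quasi-likelihood test (smallest adjusted p 0.633), where 0.00847% of genes did. DESeq2 and limma-voom called 0 members as well, against 0.144% and 0.00847% of genes. At an unadjusted p under 0.05 edgeR gave 3 members lower and 0 higher, which is 3.95% of them against 3.09% of genes lower and 4.51% higher. DESeq2 gave 3 lower (1.77% of genes) and limma-voom 2 (3.18%). Non has no replicate, so its own deviation enters each of these values.

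The 5 members with the smallest p on the lower side were Rps27, Rps21, Rps19, Rpl12 and Rpl30. Rps27 (gene ID 57294; mm10 chromosome 3, 90212667 to 90213648), a zinc finger protein of the small subunit, stood at 247 CPM in Non, at 158, 183 and 158 CPM in FV, RP and TV without ibuprofen, and at 229, 259.6 and 220.3 CPM with it. Its 3 lowest libraries were those without ibuprofen, and its log2 fold against Non was -0.58 (SE 0.21, adjusted p 0.633). Rps21 (gene ID 66481; mm10 chromosome 2, 180257379 to 180258444) stood at 109 CPM in Non, at 76.9, 73.0 and 77.2 CPM without ibuprofen and at 98.0, 107 and 96.2 CPM with it, a log2 fold of -0.52 (SE 0.20). Rps19 (gene ID 20085; mm10 chromosome 7, 24884592 to 24889811), whose human form is the gene most often mutated in Diamond-Blackfan anaemia, stood at 169.5 CPM in Non, at 123.2, 114 and 120.2 CPM without ibuprofen and at 153, 164 and 148 CPM with it, a log2 fold of -0.51 (SE 0.21). In all of these small subunit genes Non was above every library without ibuprofen. Rpl12 (gene ID 269261; mm10 chromosome 2, 32961712 to 32964045), which sits at the base of the stalk, stood at 336 CPM in Non, at 226, 274 and 201 CPM without ibuprofen and at 311, 381 and 330.3 CPM with it. Its log2 fold was -0.54 (SE 0.23). Rpl30 (gene ID 19946; mm10 chromosome 15, 34440505 to 34443276) stood at 114 CPM in Non, at 75.02, 91.0 and 75.5 CPM without ibuprofen and at 129, 146 and 89.3 CPM with it, a log2 fold of -0.51 (SE 0.23) that was -0.39 with its copies added.

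The members with the smallest p on the higher side were Rpl41, Rplp0, Rps27l, Rps2 and Rpl7a, with log2 folds from 0.10 to 0.20. None of these was above Non in all 3 libraries without ibuprofen, and each changed sign without 1 library. Without TV Ibu (-) the log2 folds of Rpl41, Rplp0 and Rps2 were -0.15, -0.09 and -0.05, and without FV Ibu (-) those of Rps27l and Rpl7a were -0.09 and -0.04. Rpl41 (gene ID 67945; mm10 chromosome 10, 128548110 to 128549168) stood at 369 CPM in Non, at 375, 296 and 675 CPM in FV, RP and TV without ibuprofen, and at 359, 381 and 503 CPM with it. Rplp0 (gene ID 11837; mm10 chromosome 5, 115559467 to 115563729), the protein that anchors the stalk, stood at 670.3 CPM in Non, at 691, 582 and 966 CPM without ibuprofen and at 734, 676 and 811 CPM with it. Both genes were highest in TV without ibuprofen and next highest in TV with it, which are also the libraries with the most erythroid counts, at 74.0% and 67.7% of the total.

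The next comparison asks how the libraries with ibuprofen differed from those without. Ribosomal protein genes stood higher with ibuprofen in each route. The median log2 difference of the 75 members was 0.23 (FV), 0.32 (RP) and 0.26 (TV), where all genes had medians of 0.02, -0.04 and -0.03. Higher with ibuprofen were 69, 74 and 61 of the 75 members. At least 2-fold apart were 0 members in FV (background 1.89%), 1 in RP (0.893%) and 1 in TV (7.2%), and each was Rpl29. On the deposited TPM scale the medians were 0.50, -0.13 and 0.98, so that RP had the opposite sign, while all genes moved by 0.30, -0.42 and 0.41. Relative to all genes the members stood at 0.20, 0.28 and 0.57 in TPM and at 0.21, 0.36 and 0.28 in CPM. The libraries without ibuprofen enter both this comparison and the one with Non, so these differences and those against Non are not independent.

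In the fit over the 3 routes, 73 of the 76 members were higher with ibuprofen (background 52.2% of genes), with a median log2 fold of 0.28 against 0.01 for all genes. The small subunit had a median of 0.30, with 29 of 30 higher, and the large subunit 0.25, with 44 of 46 higher. No member passed an adjusted p of 0.05 in edgeR (smallest adjusted p 0.391), and neither did any of the 11804 genes (background 0%). DESeq2 and limma-voom called 0 members as well, against 0.966% and 0.0169% of genes. At an unadjusted p under 0.05 edgeR gave 11 members higher (14.5% of them, against 4.78% of genes) and 1 lower (1.32%, against 5.42%). DESeq2 gave 8 higher and 1 lower (2.96% and 6.25% of genes), and limma-voom 13 higher and 1 lower (4.69% and 5.62%). The p rests on the spread left over after the terms for route and ibuprofen. With 1 library per group, differences between mice, technical differences and differences of ibuprofen between routes cannot be told apart in it.

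**Figure D3:**
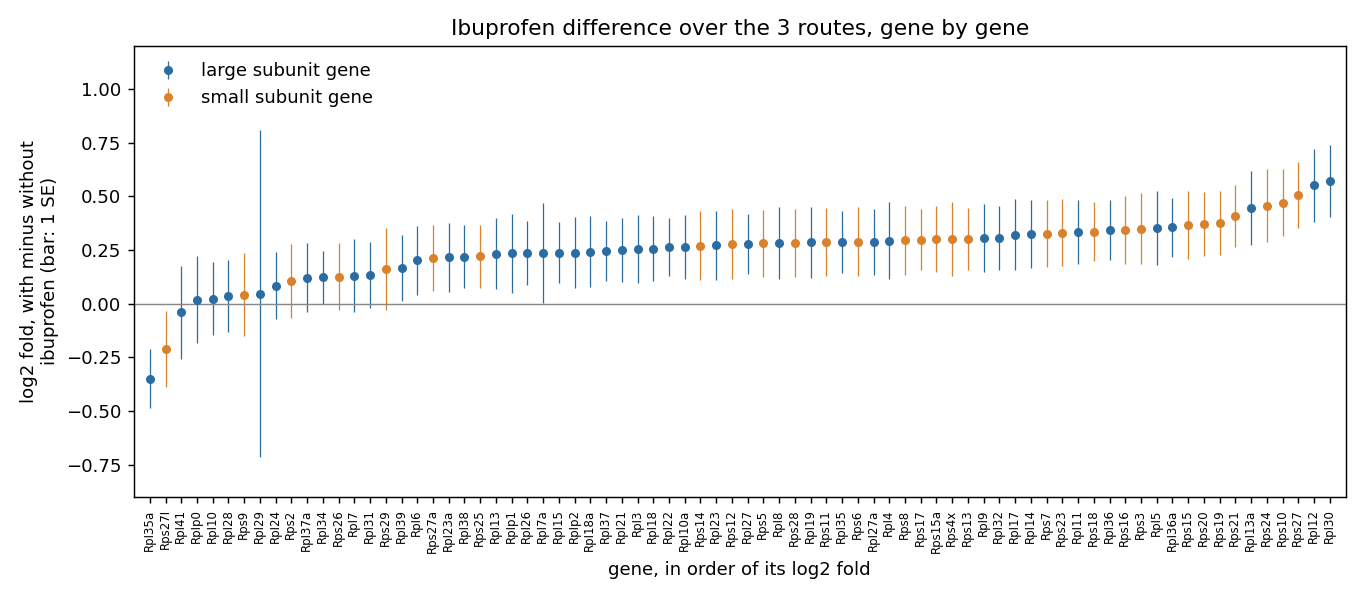
Points give the log2 fold of the libraries with over those without ibuprofen for the 76 tested genes, in order of size, with bars of 1 SE from the fit over 3 routes (blue, large subunit; orange, small subunit). The quartiles of the points are 0.21 and 0.32, Rpl35a and Rps27l lie lowest, Rpl12 and Rpl30 highest, and Rpl29 has the widest bar.

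The 5 members with the smallest p were Rpl30, Rps27, Rpl12, Rps10 and Rps21. Rps10 (gene ID 67097; mm10 chromosome 17, 27630415 to 27635244), whose human form is also mutated in Diamond-Blackfan anaemia, stood at 164, 168 and 164 CPM in FV, RP and TV without ibuprofen, at 241, 241 and 207 CPM with it, and at 203 CPM in Non. The 2 sets of libraries did not overlap, and the log2 fold was 0.47 (SE 0.16, adjusted p 0.429). Rps27 had a log2 fold of 0.51 (SE 0.15, adjusted p 0.395), Rpl12 of 0.55 (SE 0.17, adjusted p 0.397) and Rps21 of 0.41 (SE 0.14, adjusted p 0.434), and from the levels above their libraries with ibuprofen also lay above all of those without. Rpl30 had the largest fold, 0.57 (SE 0.17, adjusted p 0.391). Its TV library with ibuprofen, at 89.3 CPM, lay below RP without ibuprofen at 91.0 CPM, and with the copies added the fold was 0.41. The next gene by p on the higher side was Rps24, with a log2 fold of 0.45, named after its values were seen. Rps24, another gene of human Diamond-Blackfan anaemia, stood at 324, 296 and 284 CPM without and 458, 426 and 358 CPM with ibuprofen.

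Only 3 members had a fold below 0, and the fold of 2 of them turned with 1 route or with the counting. Rps27l had a log2 fold of -0.21 (SE 0.18) and Rpl41 of -0.04 (SE 0.22), which was 0.15 without the TV libraries. Rpl35a had -0.35 (SE 0.14, adjusted p 0.475), which was 0.32 (SE 0.15, adjusted p 0.512) with its copies added.

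The order of the libraries within each gene was also counted, without a model. Of the 76 members, 57 lay below Non in all 3 libraries without ibuprofen (background 21%) and 0 lay above it in all 3 (22.8%). With ibuprofen, 58 were higher in all 3 routes (20.1%) and 1, Rpl35a, was lower in all 3 (14.8%). In 52 members every library with ibuprofen lay above every library without it (6.47%), and in 0 members the reverse held (2.69%). These 52 were 29 of the 46 tested large subunit genes and 23 of the 30 small subunit genes. With DESeq2 size factors the counts were 55, 56 and 50, and with scaling outside the erythroid list 58, 57 and 51. On the deposited TPM scale they were 44, 14 and 0, where the same orders held in 10.9%, 6.35% and 0.703% of genes.

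Markers of T cells stood in the same direction. Their 20 genes had median log2 differences from Non of -0.82, -0.31 and -1.09 in FV, RP and TV without ibuprofen and of -0.38, 0.25 and 0.09 with it. Of the 20, 17 lay below Non in all 3 libraries without ibuprofen and 19 were higher with ibuprofen in all 3 routes. Their summed level was 1625 CPM in Non, 809 to 1420 CPM without ibuprofen and 1273 to 1925 CPM with it, and no marker was at 0 in any library. B cell markers had medians of -1.34, 0.28 and -0.64 without ibuprofen and -0.60, 0.20 and -0.04 with it. In RP without ibuprofen the B cell median was above 0 and the T cell median at -0.31, while 73 of 75 ribosomal protein genes lay below Non. Markers of myeloid cells and platelets stood the other way in several libraries. The 15 classical monocyte markers summed to 3701 CPM in Non, to 9074, 3569 and 6929 CPM in FV, RP and TV without ibuprofen and to 6977, 2528 and 3677 CPM with it. The 15 platelet markers summed to 1597 CPM in Non, 1977 to 6673 CPM without ibuprofen and 1277 to 5338 CPM with it. The 15 neutrophil markers summed to 281 CPM in Non, 319 to 1362 CPM without and 224 to 549.8 CPM with ibuprofen, and the 10 natural killer cell markers to 258 CPM in Non and 168 to 276 CPM in the other libraries. No marker of these lists was at 0 in any library. The part of cell makeup in the values of the ribosomal protein genes was not tested.

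**Figure D4:**
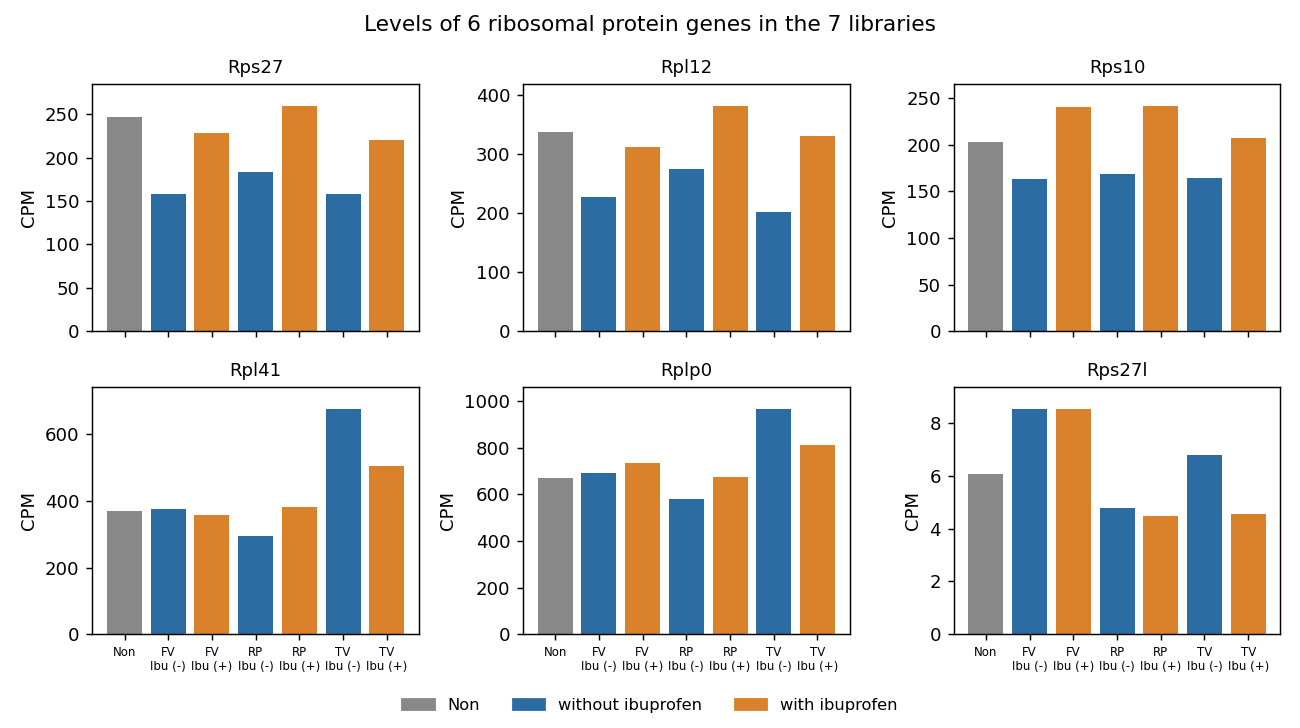
Bars give the CPM of 6 ribosomal protein genes in the 7 libraries, with Non in grey, libraries without ibuprofen in blue and those with it in orange. In Rps27, Rpl12 and Rps10 every orange bar is above every blue bar, Rpl41 and Rplp0 are highest in TV without ibuprofen, and Rps27l is highest in both FV libraries.

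The last comparison asks how the routes differed. With ibuprofen as a term, the median log2 fold of the members was -0.04 for TV over FV, -0.02 for RP over FV and -0.05 for TV over RP, against -0.07, -0.02 and -0.04 for all genes. Higher were 26, 29 and 29 of the 76 members, against backgrounds of 39.5%, 47.8% and 45.3%. The median for TV over FV was 0.02 with DESeq2 and 0.01 with its size factors in edgeR, and that for RP over FV was 0.01 with DESeq2, so these signs turn with the scaling. No member passed an adjusted p of 0.05 in edgeR or in limma-voom in any of the 3, where 0%, 0.11% and 0% of genes did so in edgeR and 0.0508%, 1.58% and 0% in limma-voom. DESeq2 called 0 members for TV over FV (2.66% of genes) and 0 for RP over FV (9.1%). At an unadjusted p under 0.05 edgeR gave 1 higher and 2 lower for TV over FV, 0 and 1 for RP over FV, and 1 and 1 for TV over RP. The backgrounds were 4.68% and 6.06%, 8.54% and 16.1%, and 9.01% and 4.04%.

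Rpl41 had the highest log2 fold of the members both for TV over RP and for TV over FV. Its edgeR fold was 0.79 over RP (SE 0.27, adjusted p 0.3802) and 0.68 over FV (SE 0.26, adjusted p 0.431). DESeq2 called it in TV over RP, at an adjusted p of 0.0354, and also called Rpl35a there, at a log2 fold of -0.85 and an adjusted p of 0.00742. These are 2 of 76 members, where DESeq2 called 1.62% of all genes. Rpl35a was at -0.88 in edgeR (SE 0.17, adjusted p 0.3802) and at -0.09 with its copies added. Outside DESeq2 the adjusted p ran from 0.358 to 0.834 for Rpl35a and from 0.358 to 0.564 for Rpl41 over the settings tried. Over FV, the next genes on the higher side in TV were Rps2, Rplp0, Rplp1 and Rplp2, at 0.34, 0.32, 0.24 and 0.21 (SE 0.21, 0.25, 0.22 and 0.20). Next to Rpl41 in TV over RP were Rplp0 at 0.50 (SE 0.25), Rps2 at 0.40 (SE 0.21), Rpl28 at 0.36 (SE 0.20) and Rpl37a at 0.27 (SE 0.20). Rps2, a protein at the mRNA entry channel, stood at 71.5 and 73.6 CPM in TV without and with ibuprofen, and at 46.0 to 64.4 CPM in the other libraries. Rplp1 stood at 316 and 311 CPM in TV and at 217 to 309.8 CPM elsewhere. The erythroid list had a median log2 difference from Non of 1.22 in TV without ibuprofen and 0.49 with it, and its part in these values was not tested. Lower in TV over RP by the rule were Rpl30 at -0.48 (SE 0.21; -0.24 with its copies), Rpl12 at -0.32 (SE 0.21), Rpl13a at -0.27 and Rpl36 at -0.22.

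Rps27l, a paralogue of Rps27 that p53 induces, had the lowest level of the members that passed the filter. It stood at 8.52 CPM in both FV libraries, at 4.77 and 4.50 CPM in RP, at 6.78 and 4.55 CPM in TV without and with ibuprofen, and at 6.06 CPM in Non. FV was highest, and the log2 fold was -0.88 for RP over FV (SE 0.22, adjusted p 0.102) and -0.61 for TV over FV (SE 0.22, adjusted p 0.399). Rps27 itself was at 0.19 (SE 0.19) for RP over FV. For TV over FV, Rpl35a was at -0.56 (SE 0.17, adjusted p 0.319; -0.16 with its copies), and Rps18, Rps25 and Rpl29 were at -0.27, -0.27 and -1.22 (SE 0.17, 0.18 and 0.83). With copies added Rps18 was at -0.16 and Rpl29 at -0.14 (SE 0.19). For RP over FV, Rpl35a was at 0.32 (-0.07 with its copies), Rpl12, Rpl30 and Rpl21 at 0.28, 0.23 and 0.17, and Rpl10, Rps9, Rpl37a and Rps27a, which is made as a fusion with ubiquitin, at -0.26, -0.24, -0.19 and -0.18, with SE of 0.17 to 0.24.

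The widest differences among the members lay in genes with near-identical copies. Coding sequences were compared with the transcripts of the GENCODE M21 annotation of GRCm38, and 67 of the 80 members had at least 1 copy row in the table with 95% identity over 70% of the coding sequence. There were 408 such rows, 397 of them with counts. For 13 members the copies held more than 10% of the counts of gene and copies together, and for 4 more than 50%: Rps2 (81.6%), Rpl34 (79.5%), Rpl29 (75.3%) and Rps18 (67.7%). A read that matches a gene and its copy equally can be placed on either, and how the authors' counting treated such reads is not given in the sources used here, so the levels of these genes are uncertain.

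Rpl35a and Rpl29 are separated from their most counted copies by very few bases. The coding sequence of Rpl35a (gene ID 57808; mm10 chromosome 16, 33056453 to 33060189), 330 bases long, differs from that of Rpl35a-ps3 on chromosome 17 by G156A alone, with positions counted from the first base of the start codon and the base of Rpl35a first. The same substitution is the only difference to Rpl35a-ps2, Rpl35a-ps4, Rpl35a-ps6 and Gm10243. The coding sequence of Rpl29 (gene ID 19944; mm10 chromosome 9, 106428889 to 106431568), 480 bases long, differs from Gm8210 on chromosome 1 and Gm13841 on chromosome 5 by C72A, C300T and T423C. The windows from base 126 to 186 of Rpl35a and from base 42 to 102 of Rpl29 are shown because these letters are all that tells a read of the gene from a read of the copy there. They are written 5′ to 3′ with the differing base in capitals, and Gm13841 equals Gm8210 in its window.
Rpl35a: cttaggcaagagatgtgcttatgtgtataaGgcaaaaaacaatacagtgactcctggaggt
Rpl35a-ps3: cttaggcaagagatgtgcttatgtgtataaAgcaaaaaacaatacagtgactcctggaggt
Rpl29: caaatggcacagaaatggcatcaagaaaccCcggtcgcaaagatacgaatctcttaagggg
Gm8210: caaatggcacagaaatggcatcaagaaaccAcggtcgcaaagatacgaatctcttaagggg

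Rpl29 on its own row stood at 44.9 CPM in Non, at 39.5, 6.11 and 19.0 CPM in FV, RP and TV without ibuprofen, and at 22.8, 36.1 and 7.72 CPM with it. Its copy rows together stood at 63.5 CPM in Non, at 63.8, 76.2 and 73.4 CPM without ibuprofen and at 83.9, 75.4 and 90.7 CPM with it. The libraries with the least on the own row, RP without ibuprofen and TV with it, had 92.6% and 92.2% of the family's counts on copies, against 58.6% in Non. The log2 difference of the own row from Non was -0.18, -2.87 and -1.24 without ibuprofen and -0.97, -0.31 and -2.53 with it. With the copies added it was -0.08, -0.41 and -0.22 without and -0.05, 0.04 and -0.14 with ibuprofen, and the SD over the 7 libraries was 0.15 in place of 1.14. The SD of the sum lay at the lower quartile of the members, and why the reads lay on different rows in different libraries was not tested.

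Rpl35a on its own row stood at 113 CPM in Non, at 95.5, 117 and 67.1 CPM without ibuprofen and at 76.0, 96.2 and 49.7 CPM with it. Its copies stood at 41.6 CPM in Non, at 37.3, 10.6 and 54.9 CPM without and at 93.7, 63.0 and 98.6 CPM with ibuprofen. In each route the own row was lower and the copies higher with ibuprofen. With the copies added, the log2 difference from Non was -0.22, -0.28 and -0.33 without ibuprofen and 0.11, 0.05 and -0.06 with it, in place of -0.24, 0.06 and -0.75 and of -0.57, -0.23 and -1.18.

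**Figure D5:**
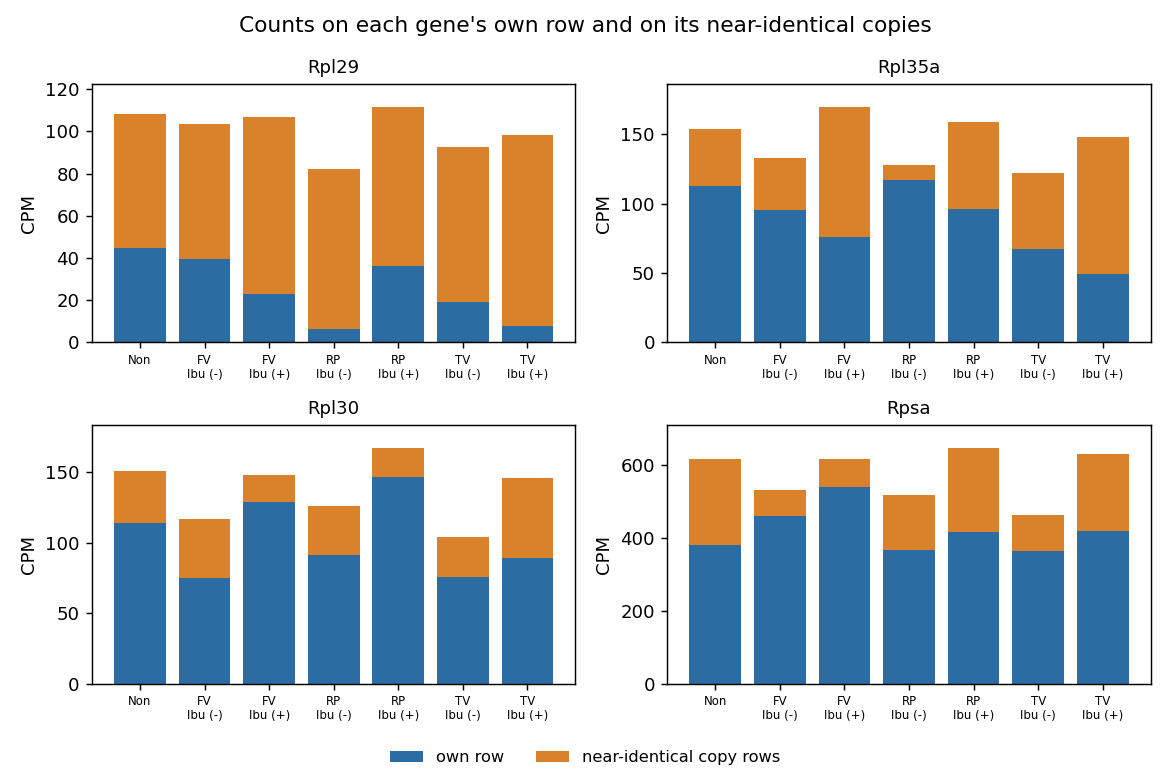
Bars give the CPM on each gene's own row (blue) and on all its near-identical copy rows (orange) in the 7 libraries, for Rpl29, Rpl35a, Rpl30 and Rpsa. The blue part of Rpl29 runs from 6.11 to 44.9 CPM and that of Rpl35a from 49.7 to 117 CPM, while the height of the whole bar varies less.

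The same was seen in 3 further families. Rpl7a stood at 129 CPM in Non and at 121 to 195 CPM in the collected libraries, with 16.1% to 49.97% of its family's counts on 28 copies. Its highest own-row difference from Non, 0.60 in RP with ibuprofen, was 0.08 with the copies added. Rpl30 had 12.3% of its family's counts on copies in RP with ibuprofen and 38.9% in TV with ibuprofen, and its difference from Non in TV with ibuprofen was -0.36 on its own row and -0.05 with copies. Rps24 had 1.65% of counts on copies in FV with ibuprofen and 18.1% in RP without it, and its difference in RP without ibuprofen was -0.52 on its own row and -0.31 with copies.

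Adding the copies narrowed the members without moving their centre. In RP without ibuprofen the lowest difference from Non over the members was -2.87 with own rows and -0.59 with copies, and their SD was 0.32 and 0.10. In TV with ibuprofen the lowest was -2.53 and -0.41, and the SD 0.35 and 0.13. The median differences from Non with copies were -0.19, -0.26 and -0.26 without ibuprofen and 0.03, 0.07 and 0.01 with it. For 69 of the 76 tested members the difference moved by 0.1 or less in all 6 libraries. Then 58, 62 and 54 members had the 3 orders counted above (21.7%, 19.4% and 6.04% of all genes). With copies added, all 75 members lay below Non in RP without ibuprofen and all 75 were higher with ibuprofen in RP. The medians of all genes there were 0.03 and -0.03. The test over the 3 routes gave 74 of 76 members higher with ibuprofen, 12 of them at an unadjusted p under 0.05, and 0 at an adjusted p of 0.05. Of all 11656 genes in that fit, 6063 were higher, 555 of them at that unadjusted p, and 0 passed the adjusted p.

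The spread over libraries within each gene was also taken. The SD of log2 CPM over the 7 libraries had a median of 0.17 over the 76 tested members, with quartiles of 0.15 and 0.20, against 0.22 (0.15 to 0.35) over 6141 genes at a mean of 10 CPM or more.

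The annotated starts of the genes were searched for pyrimidine runs like that of the TOP motif. In RefSeq promoter windows of GRCm38.p6, 60 members were matched, with 72 annotated starts. In a window of 30 bases around each start, 15 on either side and read on the gene's strand, a run of at least 7 bases that are all C or T was looked for. It was found at 35 of the 72 starts (48.6%), against 18.6% of 32851 starts of all genes. The list of other translation genes had it at 28.0% of 25 starts, and the list of ribosome biogenesis genes at 7.32% of 41. A run of letters is a description of the window, not a mapped start of the mRNA. The windows shown are those of the members among the 5 of smallest p for ibuprofen that have an entry, and of 3 of the 5 members of smallest p on the higher side for TV over RP, chosen after their runs were seen so that windows with and without a run appear. Runs are in capitals.
Rps27, chr3:90213634-90213663, minus strand: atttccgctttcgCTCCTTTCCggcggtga
Rps10, chr17:27635230-27635259, minus strand: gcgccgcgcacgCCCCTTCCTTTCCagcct
Rpl12, chr2:32961697-32961726, plus strand: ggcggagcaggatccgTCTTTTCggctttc
Rps21, chr2:180257364-180257393, plus strand: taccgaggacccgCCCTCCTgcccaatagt
Rpl41, chr10:128549154-128549183, minus strand: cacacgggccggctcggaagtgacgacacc
Rplp0, chr5:115559452-115559481, plus strand: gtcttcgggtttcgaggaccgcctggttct
Rpl28, chr7:4792950-4792979, plus strand: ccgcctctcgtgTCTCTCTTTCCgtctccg
The longest runs were 9, 13, 7 and 7 bases in Rps27, Rps10, Rpl12 and Rps21, whose second start has 4. In Rpl41, Rplp0, Rps2, Rpl28 and Rpl37a, the 5 for TV over RP, they were 3, 5, 6, 11 and 4 bases. No relation between runs and folds was tested. Rps27l, whose fold with ibuprofen was below 0, has a run of 9 bases at 1 of its 2 starts, and Rplp0, without one, had a fold of 0.02.

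Some ribosomal protein genes have symbols that the rule does not match. Rpsa and Rps3a1 encode small subunit proteins, and Fau encodes another as a fusion with a ubiquitin-like protein. Rps3a1 stood at 321 CPM in Non, at 293, 294 and 246 CPM without ibuprofen and at 325, 364 and 292 CPM with it. Fau stood at 211 CPM in Non, at 186, 169.6 and 177 CPM without and at 237, 199.98 and 194 CPM with ibuprofen. Both had their libraries without ibuprofen below Non. They and Rpsa belong to a list of related genes, of which 8 were tested. Against Non, 5 of the 8 were lower without ibuprofen (50.8% of all genes) and 3 higher (49.2%), with a median log2 fold of -0.07. In 4 of the 8 all 3 libraries without ibuprofen lay below Non (21% of all genes). With ibuprofen all 8 were higher (52.2% of all genes), with a median of 0.22.

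Rpsa stood at 381 CPM in Non, at 461, 368 and 366 CPM without ibuprofen and at 539.7, 418 and 419 CPM with it. Its processed copy Rpsa-ps10 on chromosome 3 differs from it by 6 substitutions in 885 bases, the first of which is C25A. It stood at 222 CPM in Non, at 66.9, 142 and 90.9 CPM without and at 71.8, 216 and 202 CPM with ibuprofen. With all copies added, Rpsa lay at -0.22, -0.26 and -0.40 from Non without ibuprofen and at -0.03, 0.07 and 0.03 with it, against 0.28, -0.05 and -0.06 and 0.50, 0.14 and 0.14 on its own row. The first 55 bases of the coding sequences, with the base at position 25 in capitals, show how the reads are told apart there.
Rpsa: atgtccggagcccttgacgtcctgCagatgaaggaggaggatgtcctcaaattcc
Rpsa-ps10: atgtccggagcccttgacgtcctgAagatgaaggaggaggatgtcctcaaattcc

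Among other genes of the pathway, none of which passed the adjusted p with ibuprofen, are 39 ribosome biogenesis genes. Of these, 36 were higher with ibuprofen (52.2% of all genes), with a median log2 fold of 0.23 and 4 higher at an unadjusted p under 0.05 (4.78% of all genes). Against Non 34 of 39 were lower without ibuprofen (50.8% of all genes), with a median of -0.24. By library their medians against Non were -0.24, -0.07 and -0.58 in FV, RP and TV without ibuprofen and -0.13, 0.02 and -0.01 with it, lowest in TV without ibuprofen. Nucleolin (Ncl), which works on the precursor of ribosomal RNA, stood at 121 CPM in Non, at 105, 121 and 85.5 CPM without and at 118, 128 and 121 CPM with ibuprofen. Ubtf, the nucleolar factor of ribosomal RNA transcription, and Rrp1 stood at 51.4 to 67.4 CPM and at 38.2 to 45.6 CPM over the libraries.

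The 31 other translation genes, many of them with TOP mRNAs, had 21 higher with ibuprofen (52.2% of all genes) and a median of 0.06. Against Non 17 were lower (50.8% of all genes), with a median of -0.02. Eef1a1, the factor that brings aminoacyl-tRNA, stood at 2769 CPM in Non, at 2719, 2596 and 2408 CPM without ibuprofen and at 2985, 2787 and 2792 CPM with it. Tpt1 and Pabpc1 were highest in TV without ibuprofen, like Rpl41. Tpt1 stood there at 2963 CPM against 1721 CPM in Non, and Pabpc1, the poly(A) binding protein, at 1972 against 1272 CPM. Of 14 genes of the mTOR pathway, 12 were above 0 with ibuprofen (52.2% of all genes), with a median of 0.04. By route the ibuprofen medians were 0.02, -0.06 and 0.18 in FV, RP and TV. Of the 14, 1 was higher with ibuprofen in all 3 routes (20.1% of all genes). Against Non 10 of the 14 were lower without ibuprofen (50.8% of all genes), with a median of -0.08. Eif4ebp2 stood at 106 to 129 CPM and Larp1, which binds TOP mRNAs, at 44.8 to 52.1 CPM, and Larp4 at 19.8 to 26.6 CPM. Of 9 tested genes of the eIF2 stress arm, 7 were lower with ibuprofen (47.8% of all genes), with a median of -0.17. By route the ibuprofen medians were 0.04, -0.07 and -0.46 in FV, RP and TV. Of the 9, 2 were lower with ibuprofen in all 3 routes (14.8% of all genes). Against Non, 8 of the 9 were higher without ibuprofen (49.2%), with a median of 0.25. Atf4, the transcription factor of that arm, stood at 50.7 CPM in Non, at 79.4, 66.3 and 95.4 CPM without ibuprofen and at 74.6, 63.2 and 59.0 CPM with it. Ppp1r15a, a regulatory subunit of the phosphatase that acts on eIF2, stood at 62.1 CPM in Non and at 41.9 to 78.9 CPM elsewhere. Eif2ak1, the haem-regulated eIF2 kinase, stood at 48.8 CPM in TV without ibuprofen and at 32.1 to 38.8 CPM in the other libraries.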

How the data were processed

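RNA of PBMCs was sequenced in 7 libraries, 1 per group. Reads were trimmed with Trimmomatic 0.38 and aligned with HISAT2 2.1.0 to mm10, per the submitters' processing notes. The sources used here do not give the counting program, its use of strand or its treatment of reads with several matches. The deposited read counts per gene are raw counts, per the file headers. The deposited TPM values, made by the authors per length and scaled within each library, served for levels between genes and as an alternative, as log2(TPM + 0.1). The deposited FPKM values (counts per length and library size) served only, with the counts, for the implied lengths. All 45777 rows name a gene, and 45679 gene IDs matched the RefSeq table of GRCm38.p6, including all 80 members.

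Counts were scaled by TMM and genes with a mean of 1 CPM or more (11804) were tested with edgeR 4.0.16 (R 4.3.3), quasi-likelihood test, with Benjamini-Hochberg adjustment over all of them. Ibuprofen was fitted over 3 routes with route as a term, and routes with ibuprofen as a term, on the 6 collected libraries. This left 2 residual degrees of freedom. The comparison with Non came from a fit of all 7 libraries with the same terms and Non fitted exactly. It took the mean of the 3 routes without ibuprofen minus Non, and Non was assumed to vary like the others. With 1 library per group, the spread is that left over after these terms. Pairs of libraries were compared at a mean of 10 CPM or more, or of 10 TPM or more on the TPM scale, with no test. Alternatives were DESeq2 1.42.0, limma-voom 3.58.1, other scalings, other filters, libraries left out, and copies added (chosen after seeing the data, as were the scalings in the counts of library order). Copies were found with BLAST 2.17.0, and Wilson intervals came from SciPy 1.17.1. Named were, per subunit, the 4 highest and 4 lowest members per length, the 5 of smallest p per direction and comparison, members 2-fold from Non, tissue-restricted paralogues with their partners, and the 3 most abundant genes of each pathway list. The members and lists were chosen with earlier results of these data known. One gene outside the rule is not reported here.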

Additional observations from a re-analysis of the deposited data

Results flagged for a closer look

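Rpl29 on its own row differed in direction between routes: with ibuprofen its log2 CPM was lower in FV (-0.79) and TV (-1.30) and higher in RP (2.55). Each value compares 1 library with 1 library, and the difference between routes was not tested. With the counts of near-identical copies added, no member was 2-fold apart in any of these pairs.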

How the results depend on the processing

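The direction of the member medians for ibuprofen and against Non held in CPM under every scaling, filter and tool run. Leaving out 1 route moved the ibuprofen median between 0.23 and 0.28, lowest without the RP libraries. Against Non the median ran from -0.25 to -0.23 with 1 library left out and was -0.0836 with all 6 collected libraries. For TV over FV it was 0.0205 with DESeq2 and 0.00605 with its size factors in edgeR. For TV over RP, DESeq2 gave a median of -0.0121 and called 2 members (1.62% of all genes). Single genes turned as follows, and the cause was not tested: Rpl41 for ibuprofen ran from -0.26 to 0.15, above 0 without TV. Against Non and without FV Ibu (-), Rps27l turned to -0.0893 (range to 0.33) and Rpl7a to -0.0351 (to 0.17). Without TV Ibu (-), Rpl41 turned to -0.15 (to 0.45), Rplp0 to -0.0880 (to 0.29) and Rps2 to -0.0461 (to 0.27). With copies added, Rpl35a turned to 0.32 for ibuprofen and to -0.0715 for RP over FV, and Rpl7a to -0.0390 against Non.

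In deposited TPM the medians against Non were -0.0670, -0.0383 and -1.47 in FV, RP and TV without ibuprofen and 0.45, -0.17 and -0.46 with it. For ibuprofen they were 0.50, -0.13 and 0.98. At least 2-fold apart in TPM were 71 members in TV Ibu (-) against Non (47.3% of all genes). For ibuprofen they were 1 in FV (3.64%) and 32 in TV (16.0%). In TPM 14 members were higher with ibuprofen in all routes (6.35%), and 0 had all libraries with it above those without (0.703%). Scaling outside the erythroid list put 1 member 2-fold from Non in FV Ibu (+), where 5.54% of genes were so in the main scaling. It put the FV ibuprofen median at 0.19. DESeq2 size factors also put 1 there, with medians of -0.23 in TV Ibu (-) and 0.00489 in FV Ibu (+) against Non, and 0.19 and 0.21 for ibuprofen in FV and TV. With copies added, 0 members were 2-fold apart in RP Ibu (-), TV Ibu (-) and TV Ibu (+) against Non (0.366%, 11.0% and 0.366% of genes). Nor was any in RP and TV for ibuprofen (0.848% and 7.28%).

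Shares outside the erythroid list, in the order Non, FV, RP and TV without ibuprofen, then FV, RP and TV with it, were 4.95%, 4.05%, 4.11%, 3.34%, 4.55%, 5.17% and 4.70% without mitochondrially encoded genes. With named pseudogenes added they were 5.12%, 4.16%, 4.26%, 3.42%, 4.69%, 5.35% and 4.86%, and with sequence copies 5.23%, 4.25%, 4.35%, 3.50%, 4.79%, 5.47% and 4.98%. The summed deposited TPM was 20983, 20072.5, 20154, 8344, 28332, 18788.5 and 15369. No paired analysis was possible because no group has numbered replicates to match. The ibuprofen comparison itself has route as a term, and its median was 0.28 without that term. Non and each group rest on 1 library, so no p here measures variation between mice of a group.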
